A study of Mus musculus with 12 samples.

Results

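Cholesterol synthesis was followed in the *Xist*‐TetOP lines through 8 of its enzymes, *Hmgcs1*, *Idi1*, *Fdft1*, *Sqle*, *Lss*, *Cyp51*, *Nsdhl* and *Ebp*. They were chosen by name, with earlier results of these data known, from the 24627 genes counted in each of 12 RNA‐seq libraries. *Nsdhl* and *Ebp* are X‐linked (2 genes) and the other 6 are autosomal, and the question asked was whether the autosomal part of the pathway responds when the X‐linked enzymes fall. All 8 genes were detected in every library, with 289 to 946 counts for the X‐linked and 1195 to 8890 for the autosomal ones.

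Cells make cholesterol from acetyl units in a long chain of reactions. HMGCS1 acts near its start, IDI1 interconverts the isoprenoid building blocks, FDFT1 joins farnesyl units into squalene, SQLE oxidises squalene and LSS closes it into lanosterol. CYP51 and NSDHL then remove methyl groups from the ring, and EBP moves a double bond within it. When the endoplasmic reticulum runs short of sterol, the carrier SCAP takes SREBP transcription factors to the Golgi, where the proteases encoded by *Mbtps1* and *Mbtps2* release them, and they raise most synthesis genes. INSIG proteins hold SCAP back when sterol is plentiful, while LXR receptors respond to oxidised sterols by raising genes for cholesterol export. Mutations of *Nsdhl* and *Ebp* underlie the X‐linked bare patches and tattered phenotypes of the mouse.

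The cells were J1 mouse ES cells, which carry a single X chromosome, and in all 6 groups *Xist* was under a doxycycline‐responsive TetO promoter at its own locus. The line with full‐length *Xist* (*Xist* FL), the line whose transcript lacks the A repeat (*Xist* ΔA), required for gene silencing, and the line whose transcript lacks the B and C repeats, which recruit Polycomb complexes (*Xist* ΔB+C), were each grown for 2 days without LIF, either in 1.5 μg/ml DOX or in its absence (noDOX). There were 2 replicates in each group. Each line was a single clone, so that a difference between lines cannot be told apart from one between clones, and *Xist* forms a domain in only part of the cells. In such bulk RNA, fewer cells with an active gene and less RNA per cell cannot be told apart.

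The libraries held 31337490 to 41240470 counts. *Xist* lay between 2.44 and 8.38 CPM (counts scaled to library size and a common total) in the 6 noDOX libraries and between 557 and 1830 CPM in the 6 DOX libraries, so that every library matched its label for DOX. Total *Xist* does not check which line a library came from. With DOX it was at 869 and 906 CPM in *Xist* FL, 714 and 557 CPM in *Xist* ΔA and 1830 and 1170 CPM in *Xist* ΔB+C. Without DOX it was highest in *Xist* ΔA (6.41 and 8.38 CPM). Comparisons of responses between lines thus also compare unlike levels of *Xist* RNA, and the part of this was not tested. All 8 ES cell markers examined were detected in every library, with *Pou5f1* at 1149 to 1811 CPM, and 6 of 8 endoderm markers were expressed highly enough to be tested (*Dab2* highest, at 11.6 to 30.3 CPM), while *Afp* and *Ttr* stayed at or under 0.131 and 0.267 CPM. Expression is given below in CPM scaled with TMM factors from autosomal genes, and responses as log2 (fold change) ± SE from edgeR. A gene passed the test at an adjusted p under 0.05 in edgeR over the 13191 genes that reached 1 CPM in 6 or more libraries, which included all 8 enzymes. For calls, shares of all genes are given for edgeR at this threshold only. Counts at an unadjusted p or from other tools have no such share beside them and are descriptions. Libraries with the same replicate number deviated together, so a second fit took the replicate number as a block, and its values are given where they change a call. The study describes the replicates as biological duplicates, the labels do not say what the numbers stand for, and the p‐values measure only the spread between these samples.

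Per kilobase of annotated exon, the 8 genes spanned about an order of magnitude in the 6 noDOX libraries. *Idi1*, at 47.9 ± 7.50 CPM per kb (SD, n = 6), and *Hmgcs1*, at 44.6 ± 3.36, stood highest, and their ranges overlapped. *Sqle* followed at 20.1 ± 2.20, *Fdft1* at 18.0 ± 2.43 and *Cyp51* at 14.3 ± 2.59 CPM per kb, each overlapping with its neighbour in this order. *Ebp* at 7.34 ± 2.26 and *Nsdhl* at 7.23 ± 0.910 CPM per kb overlapped with each other but not with *Cyp51*. *Lss* had the lowest mean, at 5.18 ± 0.335 CPM per kb, although its long annotated exon sequence of 10787 bases lowers this measure. Its range (4.64 to 5.69) overlapped with that of *Ebp* (3.86 to 9.77) but not with that of *Nsdhl*. The 6 libraries pool the 3 lines, between which *Ebp* differed, as given below, so *Lss* and *Ebp* are not separated. Both X‐linked enzymes were thus among the 3 least abundant of the 8 before *Xist* was induced.

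The starts of both X‐linked genes and of *Idi1* and *Cyp51* are shown because these are the enzymes that were lower upon DOX in the fit with the block, and that of *Hmgcs1* because it holds a sterol regulatory element core. Each window runs from 250 bases before to 50 after the RefSeq start, on the strand of the gene in build GRCm38.p6 (the mm10 genome). Capitals mark matches, on either strand, to the sterol regulatory element core TCACNCCA, to the CCAAT box or to the GC box GGGCGG. *Ebp* is at chrX:8193463-8193762 on the minus strand, *Nsdhl* at chrX:72918271-72918570 on the plus strand, *Idi1* at chr13:8885356-8885655 on the plus strand, *Cyp51* at chr5:4104648-4104947 on the minus strand and *Hmgcs1* at chr13:119690101-119690400 on the plus strand.
Ebp: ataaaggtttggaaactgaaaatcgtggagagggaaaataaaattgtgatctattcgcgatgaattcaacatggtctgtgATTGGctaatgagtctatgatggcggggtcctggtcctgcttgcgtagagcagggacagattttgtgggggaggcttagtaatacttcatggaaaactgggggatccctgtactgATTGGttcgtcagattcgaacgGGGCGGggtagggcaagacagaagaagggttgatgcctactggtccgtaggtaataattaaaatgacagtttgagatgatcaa
Nsdhl: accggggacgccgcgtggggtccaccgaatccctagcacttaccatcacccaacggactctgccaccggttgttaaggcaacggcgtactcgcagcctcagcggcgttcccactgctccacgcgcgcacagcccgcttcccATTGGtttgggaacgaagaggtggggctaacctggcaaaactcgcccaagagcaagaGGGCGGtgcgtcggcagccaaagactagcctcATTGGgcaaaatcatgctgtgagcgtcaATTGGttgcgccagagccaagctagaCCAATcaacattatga
Idi1: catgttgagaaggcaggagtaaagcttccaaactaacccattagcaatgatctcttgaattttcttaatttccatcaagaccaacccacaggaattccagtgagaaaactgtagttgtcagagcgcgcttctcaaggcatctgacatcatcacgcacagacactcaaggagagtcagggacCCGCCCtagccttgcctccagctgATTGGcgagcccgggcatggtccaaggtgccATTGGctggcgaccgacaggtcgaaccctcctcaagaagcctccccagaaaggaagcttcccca
Cyp51: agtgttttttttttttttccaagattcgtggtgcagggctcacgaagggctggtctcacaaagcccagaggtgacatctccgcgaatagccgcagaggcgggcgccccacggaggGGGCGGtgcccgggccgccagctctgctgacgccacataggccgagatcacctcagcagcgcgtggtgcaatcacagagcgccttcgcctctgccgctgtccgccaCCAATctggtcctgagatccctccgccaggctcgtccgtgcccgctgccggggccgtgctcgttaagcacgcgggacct
Hmgcs1: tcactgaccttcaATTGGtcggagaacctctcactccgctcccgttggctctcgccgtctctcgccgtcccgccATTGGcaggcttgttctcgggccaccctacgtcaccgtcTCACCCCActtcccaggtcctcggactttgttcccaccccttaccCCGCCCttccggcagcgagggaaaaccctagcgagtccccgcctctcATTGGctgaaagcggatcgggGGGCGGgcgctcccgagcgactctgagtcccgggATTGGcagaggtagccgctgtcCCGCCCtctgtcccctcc

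RefSeq promoter entries were matched for 6 of the 8 enzymes (*Hmgcs1*, *Idi1*, *Lss*, *Cyp51*, *Ebp* and *Nsdhl*). All 6 windows held a CCAAT box and all 6 a GC box, against 37.4% and 35.6% of 32817 windows of the same length. The sterol regulatory element core was found in 1 of the 6, that of *Hmgcs1*, 137 bases before the start (position -137), against 4.36% of all windows. The CCAAT box nearest upstream of the start was at -14 in *Idi1*, -20 in *Nsdhl*, -29 in *Cyp51*, -45 in *Hmgcs1*, -55 in *Ebp* and -62 in *Lss*. The window of *Mbtps2*, the X‐linked protease gene, held none of the 3 motifs. Matches of letters are a description, and a window without a match says nothing about binding of a factor.

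*Ebp* RNA fell upon DOX in *Xist* FL and *Xist* ΔB+C, called the silencing lines here because X‐linked genes fell in both. In *Xist* FL it was at 17.4 and 22.6 CPM in the noDOX libraries and at 10.3 and 9.04 CPM in the DOX libraries. In *Xist* ΔB+C it was at 19.5 and 20.7 CPM without and at 9.31 and 9.13 CPM with DOX. In both lines the DOX libraries lay below the noDOX libraries. In *Xist* ΔA it was at 8.92 and 12.6 CPM without and at 11.7 and 14.3 CPM with DOX, and the groups overlapped. *Xist* FL had a log2 (fold change) of -1.05 ± 0.198 (adjusted p = 0.0432) and *Xist* ΔB+C one of -1.12 ± 0.198 (adjusted p = 0.0230), leaving 48.4% and 45.9% of the noDOX level. In *Xist* ΔA it was 0.27 ± 0.197 (adjusted p = 1). The difference between the mean response of the silencing lines and that of *Xist* ΔA was -1.36 ± 0.242 and did not pass (adjusted p = 0.0647), but it passed with the replicate block (-1.36 ± 0.187, adjusted p = 0.00179). With the block, the call in *Xist* FL and *Xist* ΔB+C held when any of the 12 libraries was left out (adjusted p up to 0.0290 and 0.0132). Without it, the *Xist* ΔB+C call was lost when any of that line's own 4 libraries was left out (adjusted p up to 0.139), and the *Xist* FL call was lost in 10 of 12 such fits, all but those without a *Xist* ΔA noDOX library (adjusted p from 0.0449 to 0.378).

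*Nsdhl* was lower in the same lines, and passed in edgeR with the replicate block but not without it. Without a block, DESeq2 called it in both lines (adjusted p = 0.00435 and 0.00602) and limma‐voom in neither (adjusted p = 0.0758 and 0.0693). It was at 23.0 and 21.7 CPM without and at 13.7 and 12.5 CPM with DOX in *Xist* FL. It was at 23.2 and 17.1 CPM without and at 13.6 and 10.7 CPM with DOX in *Xist* ΔB+C, again with no overlap. In *Xist* ΔA the values were 20.9 and 17.8 CPM without and 18.7 and 19.2 CPM with DOX. *Xist* FL had a log2 (fold change) of -0.78 ± 0.175 (adjusted p = 0.0801, with the block 0.00188) and *Xist* ΔB+C one of -0.73 ± 0.176 (adjusted p = 0.0622, with the block 0.00209), which left 58.4% and 60.2% of the noDOX level. In *Xist* ΔA it was -0.03 ± 0.174. The difference from *Xist* ΔA was -0.72 ± 0.214 (adjusted p = 0.212, with the block 0.0110). The difference with the block was lost without *Xist* ΔA noDOX replicate 1, noDOX replicate 2 or DOX replicate 2 (adjusted p up to 0.0646). Without the block neither line's call was made in any of the 12 fits that left out a library, and with it both were made in all 12.

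**Figure D1:**
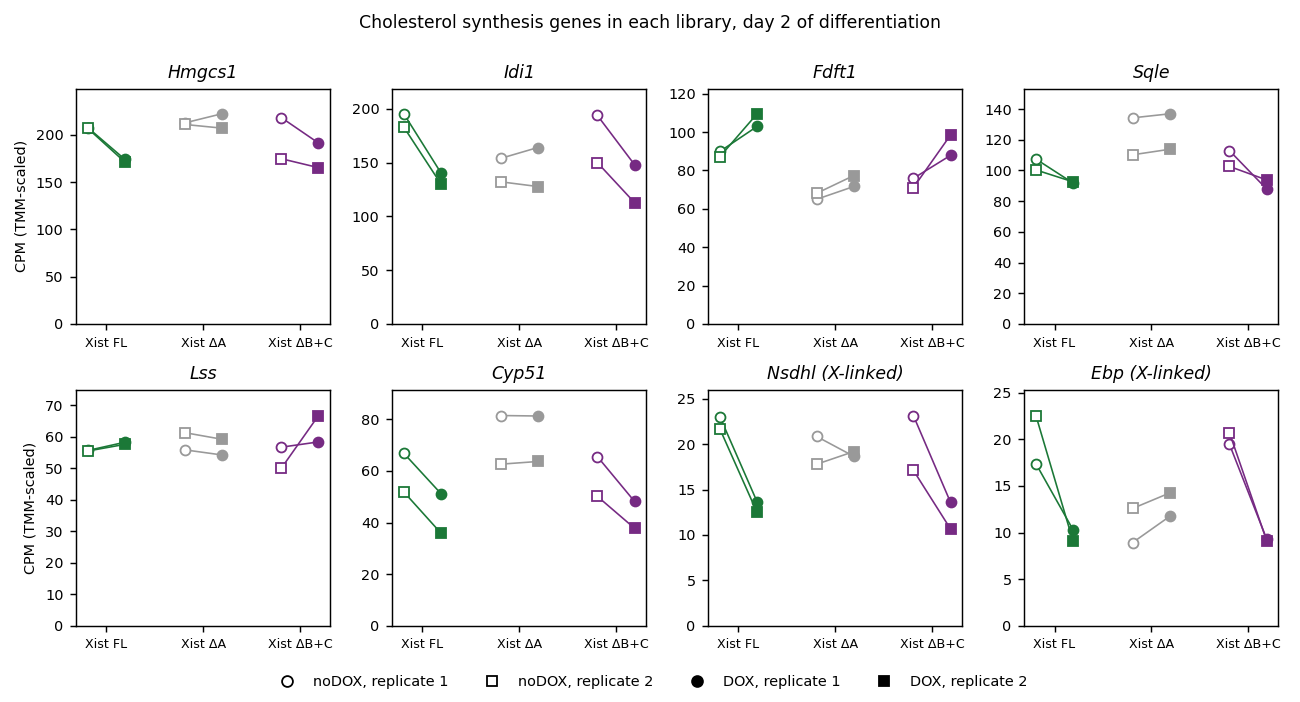
CPM (TMM‐scaled, from 0) of the 8 enzymes in each of the 12 libraries at day 2, with open symbols for noDOX, filled symbols for DOX, circles for replicate 1, squares for replicate 2 and lines joining libraries of the same number. *Ebp* and *Nsdhl* drop along every line in *Xist* FL and *Xist* ΔB+C, *Idi1* and *Cyp51* drop less steeply, and *Fdft1* climbs in all 6 pairs.

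Among the 464 X‐linked genes tested apart from *Xist*, the median log2 (fold change) was -0.85 (FL), -0.78 (ΔB+C) and -0.14 (ΔA). *Ebp* was below the median, with 150 of these genes lower in *Xist* FL and 107 lower in *Xist* ΔB+C. *Nsdhl* was near it, with 263 and 249 genes lower. Both values thus lay within the range of the X‐linked genes. Of all X‐linked genes 27.2% (FL) and 34.3% (ΔB+C) passed in the lower direction (80.6% and 75.6% with the block). In *Xist* ΔA only 5 X‐linked genes had a higher log2 (fold change) than *Ebp*, whose value there did not pass the test.

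*Mbtps2*, another X‐linked gene of sterol control and the gene of a protease that releases SREBP, was at 21.3 and 18.2 CPM without and at 18.8 and 16.1 CPM with DOX in *Xist* FL. For *Xist* ΔB+C it was at 23.1 and 17.1 CPM without and at 22.2 and 17.6 CPM with DOX, and the groups overlapped in both lines. Its log2 (fold change) was -0.18 ± 0.183 and -0.01 ± 0.183, with 95% intervals from -0.59 to 0.24 and from -0.43 to 0.40. Of the 464 X‐linked genes, 30 had a higher value for FL and 27 for ΔB+C. The annotated exons of *Mbtps2* share 2867 bases with *Yy2* on the same strand, so that reads of these genes are not fully separable.

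**Figure D2:**
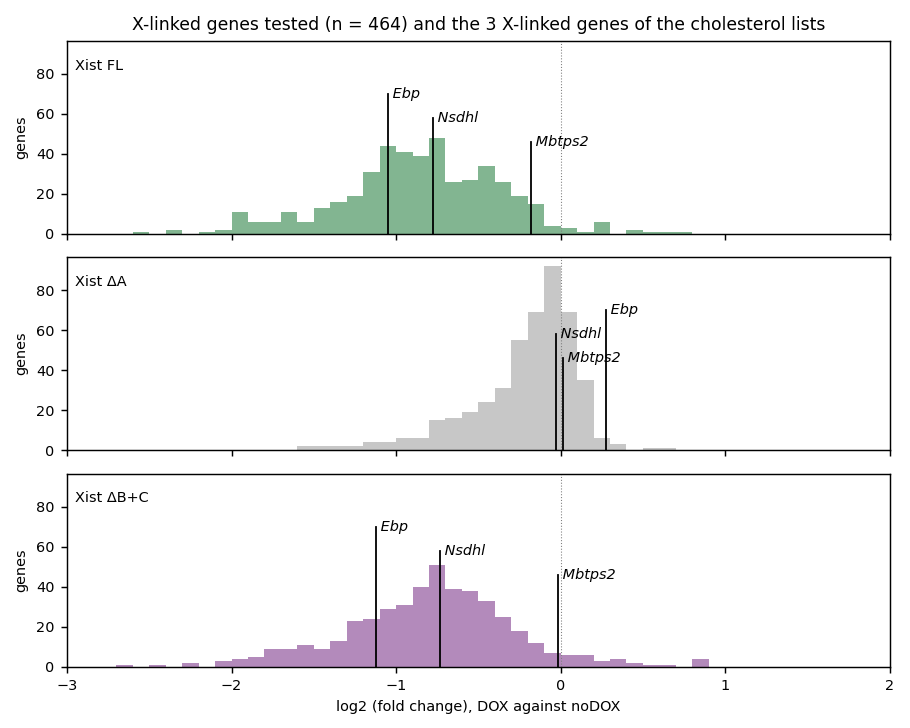
Histograms of the log2 (fold change), DOX against noDOX, of the 464 X‐linked genes tested in each of the 3 lines (bars of width 0.1, x axis on the log2 scale, y axis in genes), with vertical lines at *Ebp*, *Nsdhl* and *Mbtps2*. *Ebp* and *Nsdhl* sit within the shifted distributions of *Xist* FL and *Xist* ΔB+C, and *Mbtps2* at their upper edge.

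The 6 autosomal enzymes did not all move in the same direction. In edgeR without the block none of them passed in any line, and of the 8 genes *Ebp* alone passed, in both silencing lines (1 of 8 each), against 1.24% and 2.94% of all genes tested. In *Xist* ΔA none of the 8 passed, neither without the block (0.00758% of all genes) nor with it (0.0227%). Counted by unadjusted p under 0.05, the number was also 0 in edgeR, as was the number that passed in DESeq2 and limma‐voom. With the block 5 of the 8 passed for FL and 5 for ΔB+C, against 13.9% and 21.9% of all genes. They were *Ebp*, *Nsdhl*, *Idi1* and *Cyp51*, which were lower, and *Fdft1*, which was higher. The 2 X‐linked ones belong to a class of which 80.6% and 75.6% were lower with the block. Of the 6 autosomal enzymes alone, 2 were lower and 1 higher in each silencing line, against the same 13.9% and 21.9% in either direction. Those shares include the X‐linked genes, and a share of autosomal genes alone is not given here. DESeq2 without a block called 2 (*Ebp* and *Nsdhl*) for FL and 3 (with *Fdft1*) for ΔB+C. Its share over all genes is not given here, and the edgeR shares do not apply to it. Of the 8, limma‐voom called *Ebp* alone in both lines (adjusted p = 0.0422 and 0.0225). The median log2 (fold change) of the 6 autosomal enzymes was -0.22 (FL), -0.19 (ΔB+C) and 0.02 (ΔA), beside 0.00, 0.01 and 0.00 for all autosomal genes.

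*Idi1* was at 195 and 183 CPM without and at 140 and 130 CPM with DOX in *Xist* FL. For *Xist* ΔB+C it was at 194 and 150.0 CPM without and at 148 and 113 CPM with DOX, and in *Xist* ΔA at 154 and 132 CPM without and at 164 and 128 CPM with DOX. The DOX libraries lay below the noDOX libraries in the silencing lines only. The silencing lines had log2 (fold change) values of -0.49 ± 0.177 (FL) and -0.40 ± 0.177 (ΔB+C) (adjusted p = 0.265 and 0.268, with the block 0.00385 and 0.00755), against 0.03 ± 0.177 for *Xist* ΔA. The difference from *Xist* ΔA was -0.47 ± 0.217 (adjusted p = 0.408, with the block 0.0177). With the block, the call was lost in *Xist* FL without its noDOX replicate 2 or its DOX replicate 1 (adjusted p up to 0.0879) and in *Xist* ΔB+C without its noDOX replicate 1 or its DOX replicate 2 (up to 0.0735). The difference was lost without *Xist* ΔA noDOX replicate 1, noDOX replicate 2 or DOX replicate 1 (up to 0.118).

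*Cyp51* was at 66.9 and 51.9 CPM without and at 51.2 and 35.8 CPM with DOX in *Xist* FL. It was at 65.6 and 50.2 CPM without and at 48.2 and 37.8 CPM with DOX in *Xist* ΔB+C, and at 81.5 and 62.6 CPM without and 81.3 and 63.7 CPM with DOX in *Xist* ΔA. Replicate 1 was higher than replicate 2 in all 6 groups, and within each replicate number the DOX library of the silencing lines was lower. The silencing lines had log2 (fold change) values of -0.45 ± 0.239 (FL) and -0.43 ± 0.239 (ΔB+C) (adjusted p = 0.463 and 0.379). With the block they were -0.46 ± 0.0696 and -0.43 ± 0.0698 (adjusted p = 0.00166 and 0.00193), and both calls held when any of the 12 libraries was left out. In *Xist* ΔA it was 0.01 ± 0.237, and the difference from *Xist* ΔA was -0.45 ± 0.291 (adjusted p = 0.583, with the block 0.00773, and lost at 0.0527 without *Xist* ΔA noDOX replicate 1). Exons of *Cyp51* share 166 bases with *Akap9* on the other strand, for which the log2 (fold change) values were -0.10 ± 0.156 (FL) and -0.09 ± 0.156 (ΔB+C).

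*Fdft1*, which commits farnesyl units to sterols, was the 1 of the 8 enzymes that passed as higher upon DOX. It did so with the block in both silencing lines and, in DESeq2 without a block, in *Xist* ΔB+C (adjusted p = 0.00663). There limma‐voom did not call it (adjusted p = 0.0856). It was at 89.9 and 87.2 CPM without and at 103 and 109.6 CPM with DOX in *Xist* FL, and at 75.9 and 71.0 CPM without and 87.9 and 98.5 CPM with DOX in *Xist* ΔB+C. In *Xist* ΔA it was at 65.0 and 68.1 CPM without and at 71.7 and 77.4 CPM with DOX, and the DOX libraries lay above the noDOX libraries in all 3 lines. *Fdft1* had log2 (fold change) values of 0.26 ± 0.0895 (FL), 0.34 ± 0.0897 (ΔB+C) and 0.16 ± 0.0898 (ΔA) (adjusted p = 0.235, 0.0787 and 1, with the block 0.0399, 0.00918 and 0.943). The difference between the silencing lines and *Xist* ΔA was 0.14 ± 0.110 (adjusted p = 0.666, with the block 0.352). With the block, the *Xist* FL call was lost without any library of *Xist* FL or *Xist* ΔA (adjusted p up to 0.329), and the *Xist* ΔB+C call without its noDOX or DOX replicate 2 (up to 0.125). *Fdft1* shares 774 exonic bases with *Ctsb* on the other strand, for which the log2 (fold change) values were 0.16 ± 0.0903 (FL) and 0.05 ± 0.0905 (ΔB+C).

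*Hmgcs1*, *Sqle* and *Lss* passed in no line, with or without the block, when all 12 libraries were used. *Hmgcs1* was at 208 and 207 CPM without and at 174 and 171 CPM with DOX in *Xist* FL (log2 (fold change) -0.26 ± 0.114, adjusted p = 0.353, and 0.0539 with the block). In *Xist* ΔB+C it was at 218 and 175 CPM without and at 191 and 165 CPM with DOX (-0.14 ± 0.114), where the groups overlapped, and in *Xist* ΔA at 213 and 211 CPM without and at 222 and 207 CPM with DOX. *Sqle* was at 107 and 100.4 CPM without and at 91.8 and 92.6 CPM with DOX in *Xist* FL (-0.17 ± 0.122), and at 113 and 103 CPM without and 87.9 and 93.8 CPM with DOX in *Xist* ΔB+C (-0.25 ± 0.122, adjusted p = 0.323, with the block 0.0789). In *Xist* ΔA *Sqle* was at 134 and 110.2 CPM without and at 137 and 114 CPM with DOX. *Lss* was at 55.7 and 55.5 CPM without and at 58.3 and 57.6 CPM with DOX in *Xist* FL (0.06 ± 0.104), and at 56.7 and 50.0 CPM without and 58.4 and 66.8 CPM with DOX in *Xist* ΔB+C (0.23 ± 0.104, with the block adjusted p = 0.0930). In *Xist* ΔA *Lss* was at 55.9 and 61.4 CPM without and at 54.3 and 59.3 CPM with DOX. Over the silencing lines the 95% intervals of these responses reached from -0.52 to 0.46.

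**Figure D3:**
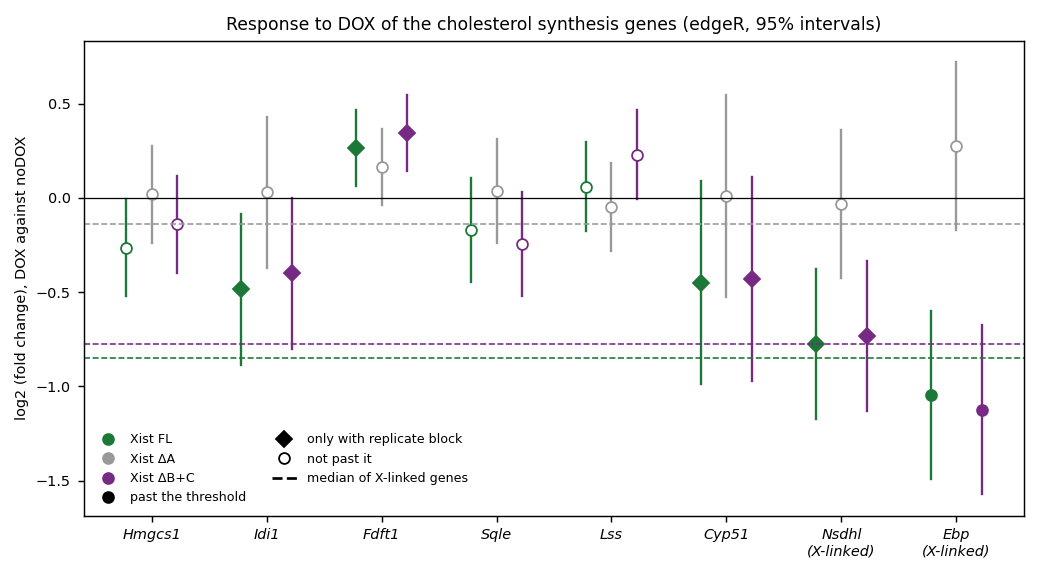
Response to DOX of the 8 enzymes on the log2 scale with 95% intervals from edgeR without the block, for each of the 3 lines. Filled circles passed in edgeR without the block, diamonds in edgeR with the replicate block alone, open circles in neither, and dashed lines mark the medians of X‐linked genes (-0.85, -0.14 and -0.78). In the silencing lines *Nsdhl* lies near this median and *Ebp* below it.

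In *Xist* FL 4 of the 6 autosomal enzymes had both DOX libraries below both noDOX libraries, and 2 had them above. In *Xist* ΔB+C the numbers were 3 below and 2 above. For all autosomal genes 23.4% lay below and 23.3% above in *Xist* FL, and 21.1% and 20.4% in *Xist* ΔB+C. In the test of the *Xist* ΔB+C response against that of *Xist* FL none of the 8 enzymes passed in edgeR (0% of all genes tested, with or without the block), in DESeq2 or in limma‐voom, and 0 had an unadjusted p under 0.05 in edgeR without the block. For *Ebp* the difference of responses was -0.08 with a 95% interval from -0.70 to 0.55, and for *Nsdhl* 0.04 with an interval from -0.52 to 0.60. None of the 8 passed the test of the silencing lines against *Xist* ΔA without the block (0.379% of all genes, 2 enzymes at an unadjusted p under 0.05 in edgeR, 1 past the threshold in DESeq2), while *Ebp*, *Nsdhl*, *Idi1* and *Cyp51* passed with it (4 of 8, against 11% of all genes). Of the 6 autosomal enzymes alone, 2 passed with the block, against the same 11%, which includes the X‐linked genes.

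Of the 23 synthesis enzymes listed, including the 8, 22 were tested. In edgeR without the block 1 was lower in *Xist* FL (*Ebp*) and 2 in *Xist* ΔB+C (*Ebp* and *Lbr*). This was against 1.24% and 2.94% of all genes in either direction. *Lbr*, a sterol reductase that is also a lamin receptor of the nuclear envelope, was at 320 and 309 CPM without and at 245 and 231 CPM with DOX in *Xist* ΔB+C (-0.40 ± 0.0789, adjusted p = 0.0319, lost in 10 of the 12 fits without a library, up to 0.157, with library totals at 0.0522 and with no filter at 0.0509) and at 330 and 315 CPM without and 266 and 242 CPM with DOX in *Xist* FL (-0.34, with adjusted p = 0.0844 in edgeR, 0.00649 in its block fit and 0.00244 in DESeq2). With the block 8 of the 22 were lower and 1 higher in *Xist* FL, and 5 lower and 1 higher in *Xist* ΔB+C, against 13.9% and 21.9% of all genes in either direction. Beyond the enzymes already named, the lower ones in *Xist* FL were *Pmvk*, a kinase of the mevalonate arm (-0.31), *Msmo1*, which works just before *Nsdhl* (-0.38), and *Sc5d*, which works after *Ebp* (-0.49). The median over the 22 enzymes was -0.12 (FL), -0.11 (ΔB+C) and 0.04 (ΔA).

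Of the 7 genes of the SREBP machinery none passed in any line without the block, and at an unadjusted p under 0.05 in edgeR 1 was lower and 1 higher in *Xist* FL and 1 higher in *Xist* ΔB+C. *Srebf2*, which encodes the SREBP most active on sterol genes, stayed at a log2 (fold change) of 0.00 ± 0.133 (FL) and -0.08 ± 0.133 (ΔB+C). *Insig1*, itself a target of SREBP, was at 66.9 and 67.0 CPM without and at 54.2 and 55.6 CPM with DOX in *Xist* FL (-0.29 ± 0.108, adjusted p = 0.281, and 0.0393 with the block), and at 63.0 and 55.4 CPM without and 54.96 and 52.8 CPM with DOX in *Xist* ΔB+C (-0.14 ± 0.108). With the block 1 of the 7 was lower (*Insig1*) and 1 higher (*Scap*, 0.40) in *Xist* FL. In *Xist* ΔB+C 1 was higher (*Scap*, 0.39). This was against 13.9% (FL) and 21.9% (ΔB+C) of all genes in either direction.

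Of 7 tested genes of uptake and transport none passed without the block, and 2 were lower at an unadjusted p under 0.05 in each silencing line in edgeR. *Lrp8*, a lipoprotein receptor, was lower with the block in *Xist* FL (-0.95) and *Xist* ΔB+C (-1.07), and *Stard4*, a cytosolic sterol carrier, in *Xist* FL (-0.28). These made 2 of 7 in *Xist* FL and 1 of 7 in *Xist* ΔB+C, against 13.9% and 21.9% of all genes. Of the 6 genes of efflux and LXR none passed without the block. At an unadjusted p under 0.05 in edgeR 3 were higher in each silencing line and 1 was lower in *Xist* ΔB+C. These unadjusted counts, like those of uptake and transport, have no share of all genes beside them and are descriptions. In the fit with the block, the export gene *Abcg1* was higher in *Xist* FL and *Xist* ΔB+C (1.05 and 1.21), and the export gene *Abca1* (1.23) and *Apoe* (0.53) in *Xist* ΔB+C. These made 1 of 6 in *Xist* FL and 3 of 6 in *Xist* ΔB+C, against the same shares of all genes. *Abca1* is a gene of low expression here, at 1.11 to 5.61 CPM over the 12 libraries.

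**Figure D4:**
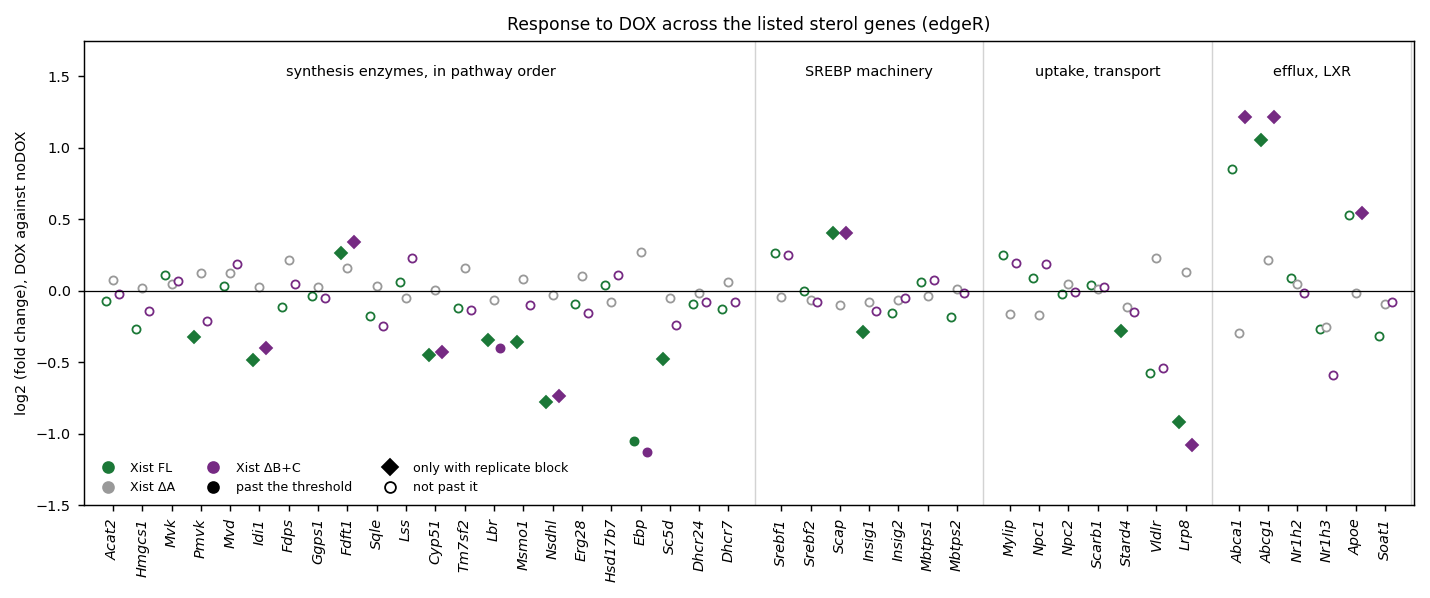
log2 (fold change), DOX against noDOX, of the tested synthesis enzymes in pathway order and of the genes of SREBP control, uptake and transport, and efflux, for the 3 lines. Symbols are as for the 8 enzymes, without intervals. The filled circles are *Ebp* in *Xist* FL and *Ebp* and *Lbr* in *Xist* ΔB+C, the diamonds lie on both sides of 0, and all values of *Xist* ΔA are open circles.

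Other features of the cultures moved with DOX beside these genes. With the block, of 8 ES cell markers 2 were higher and 1 lower in both silencing lines, against 13.9% and 21.9% of all genes. *Sox2* was higher (0.64 in both lines) and *Tdgf1* lower (-0.44 and -0.73), and without the block none passed. Summed ES cell markers were at 3368 to 4054 CPM without and 3921 to 4709 CPM with DOX in *Xist* FL, at 3512 to 4526 and 3357 to 4899 CPM in *Xist* ΔB+C and at 4017 to 5033 and 4262 to 5374 CPM in *Xist* ΔA, and the ranges overlapped in each line. Of the 6 endoderm markers tested, *Dab2* was higher in *Xist* ΔB+C with the block (0.51). The endoderm sum lay higher upon DOX for both silencing lines. Its DOX range was 25.7 to 32.7 CPM against 21.2 to 25.2 CPM for noDOX (FL), and 40.8 to 53.9 against 27.9 to 39.0 CPM (ΔB+C). For *Xist* ΔA it lay lower upon DOX, at 24.2 to 26.7 against 28.7 to 29.9 CPM. The ranges overlapped in none of the lines. No fibroblast or trophoblast marker passed in a DOX comparison. The part of all these markers in the sterol responses was not tested. Replicate 2 of *Xist* ΔB+C with DOX was made from 100 ng of RNA by a low input method, and without it *Ebp*, *Nsdhl* and *Cyp51* still passed there with the block, *Idi1* and *Fdft1* did not, and *Sqle* did.

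Before induction *Ebp* was lower in *Xist* ΔA than in the other lines. *Xist* ΔA held 53.8% of the *Ebp* level of *Xist* FL (log2 difference -0.89 ± 0.197, adjusted p = 0.0244), and *Xist* ΔB+C 187% of that of *Xist* ΔA (0.90 ± 0.197, adjusted p = 0.0307). The noDOX level of *Ebp* in *Xist* ΔA was thus close to its DOX level in the other lines. *Fdft1* was also lower in *Xist* ΔA than in *Xist* FL (-0.41 ± 0.0898, adjusted p = 0.0235), which made 2 of the 8 enzymes, against 9.84% of all genes, and with the block 4 of 8 (*Idi1* lower at -0.41 and *Cyp51* higher at 0.28 besides), against 33.4%. Between *Xist* ΔB+C and *Xist* ΔA 1 of 8 passed (6.69% of all genes), and with the block 3 (27.9%), with *Idi1* higher (0.26) and *Cyp51* lower (-0.32). Between *Xist* ΔB+C and *Xist* FL none of the 8 passed (0.0227% of all genes, with the block 0.993%), and 1, *Fdft1*, had an unadjusted p under 0.05 in edgeR, while DESeq2 and limma‐voom called none. *Ctsb*, which overlaps *Fdft1*, was also lower in *Xist* ΔA than in *Xist* FL (-0.43 ± 0.0906, adjusted p = 0.0198). Without the block the number that passed between *Xist* ΔA and *Xist* FL fell from 2 to 0 without *Xist* ΔA noDOX replicate 1 or *Xist* FL noDOX replicate 2, and to 1 without the other noDOX library of either line. Between *Xist* ΔB+C and *Xist* ΔA it fell from 1 to 0 without *Xist* ΔA noDOX replicate 1 or either *Xist* ΔB+C noDOX library.

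Markers of ES cells and of other cell types were also compared between these lines. With the block 4 of 8 ES cell markers were higher and 2 lower in *Xist* ΔA than in *Xist* FL, 2 of 6 tested endoderm markers were higher, and 2 of 4 fibroblast and 1 of 3 trophoblast markers were lower, against 33.4% of all genes in either direction. Summed fibroblast markers were at 20.1 to 54.2 CPM in *Xist* FL noDOX and at 12.8 to 17.1 CPM in *Xist* ΔA noDOX, and their part in the differences at sterol genes was not tested.

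Among the other listed genes, those with the smallest p between *Xist* ΔA and *Xist* FL were *Fads1* (-0.53 ± 0.0979), *Scd2* (-1.33 ± 0.274) and *Scd1* (-1.03 ± 0.220), with adjusted p = 0.0124, 0.0193 and 0.0224. Between *Xist* ΔB+C and *Xist* ΔA they were *Abca1* (-1.82 ± 0.379), *Fads1* (0.44 ± 0.0979) and *Scd2* (1.124 ± 0.273), with adjusted p = 0.0271, 0.0321 and 0.0440. Between *Xist* ΔB+C and *Xist* FL they were *Sc5d* (-0.31), *Insig1* (-0.18) and *Mbtps1* (0.12), none of which passed (adjusted p from 0.909 to 0.972).

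Some of the 8 enzymes also differed between replicate numbers, though no larger a share than among all genes. In the fit with the block, replicate 2 was lower than replicate 1 for *Cyp51* (-0.39 ± 0.0400, adjusted p = 6.25e-05), *Idi1* (-0.26 ± 0.0492, adjusted p = 0.00162) and *Nsdhl* (-0.20 ± 0.0693, adjusted p = 0.0360), which made 3 of the 8 enzymes, against 46.3% of all genes. Of the other listed genes, *Mvd* (0.50 ± 0.0564) and the LXR gene *Nr1h2* (0.40 ± 0.0459) were higher and *Msmo1* (-0.37 ± 0.0472) lower, with the smallest p. The trophoblast and fibroblast markers *Krt8* and *Col1a1* were lower in replicate 2 as well (-1.95 and -1.35), and 7 of 8 ES cell markers were higher. Whether these numbers mark a shared culture round is not stated in the labels.

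Over the 12 libraries, *Cyp51* correlated with *Sqle* (r = 0.88), *Hmgcs1* (r = 0.88) and *Nsdhl* (r = 0.79), while *Fdft1* ran against *Sqle* (r = -0.78) and *Cyp51* (r = -0.77) and *Lss* against *Idi1* (r = -0.61). *Ebp* and *Nsdhl* correlated at r = 0.68. These Pearson coefficients of log2 CPM describe libraries that share lines, treatments and replicate numbers. The genes whose pattern was most like the mean of the 6 autosomal enzymes were *Isca2* (r = 0.97), *Fam98b* (0.96), *Selenoi* (0.92), *Ktn1* (0.92), *Tmed7* (0.92), *Bag3* (0.92), *Zfp326* (0.92), *Ywhaz* (0.91), *Rsl1* (0.91) and *Cdc42* (0.91), none of them in the sterol lists. Of the listed genes, *Insig1* (r = 0.88) and *Stard4* (r = 0.87) came nearest, at ranks 40 and 48 of 13185. The genes most like *Nsdhl* were the X‐linked *Rlim*, *Bex2* and *Magt1* (r = 0.97 each), and those most like *Ebp* were the autosomal *Vps4a* (0.95), *Rfwd2* (0.94) and *Spg20* (0.94), with *Lbr* at rank 20 of 13190 (r = 0.88).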

How the data were processed

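Total RNA of 12 samples was sequenced as paired reads, and the deposited counts were made by the authors with TopHat2 2.1.0 on mm10 and featureCounts 1.5.1. They kept 1 place per read, and no strand setting is given in the sources used here, so that overlapping genes cannot be fully separated. Groups follow the labels, and 0 pairs of libraries held identical counts. Counts were scaled to CPM with TMM factors from expressed autosomal genes (0.978 to 1.02). Genes that reached 1 CPM in 6 or more libraries were kept, and the quasi‐likelihood test of edgeR 4.0.16 (R 4.3.3) was run on 6 group means (6 residual degrees of freedom, 5 with the block), with Benjamini‐Hochberg adjustment over 13191 genes and a threshold of 0.05. The replicate 2 minus replicate 1 differences of the 6 groups correlated in all 15 pairs of groups (r from 0.405 to 0.838, mean 0.634), so that the numbers were taken as pairing the libraries. The pairing comes from the data, as the labels do not explain the numbers. A sum of 3 counts, the smallest number taken as detectable, was 0.0727 to 0.0957 CPM, and this covers counting error only.

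Alternatives were the replicate block, DESeq2 1.42.0, limma‐voom (limma 3.58.1), TMM factors from all genes, library totals, no filter, a filter of 5 CPM and leaving out each library. Leaving out libraries in the block fit was added after the data were seen. The 8 members and all gene lists were chosen with earlier results of these data known. Named genes were the 8 members, *Insig1*, *Srebf2* and *Mbtps2*, listed genes past the threshold in a DOX comparison or in the difference from *Xist* ΔA, and the 3 listed genes with the smallest p between lines and between replicate numbers. Some items of the lists are not reported here and enter no list count. Nearest patterns were ranked by Pearson r of log2 CPM. The edgeR fit without the block was tested on simulated counts, for the DOX response of *Xist* FL only. The fit with the block, DESeq2 and limma‐voom were not part of that test. Promoter windows are from RefSeq, build GRCm38.p6.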

Additional observations from a re-analysis of the deposited data

Results flagged for a closer look

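The response to DOX differed between the silencing lines (the mean of *Xist* FL and *Xist* ΔB+C) and *Xist* ΔA for 13 of the 56 tested genes of the sterol lists in edgeR with the replicate block, against 11% of all genes, and for none of them without it (0.379% of all genes). The tests are of the difference itself on the log2 scale. The lists were chosen with earlier results of these data known and include the X‐linked *Ebp* and *Nsdhl*, so the 2 shares are a description only. Among the 8 enzymes the differences were -1.36 for *Ebp* (adjusted p = 0.00179), -0.73 for *Nsdhl* (0.0110), -0.47 for *Idi1* (0.0177) and -0.45 for *Cyp51* (0.00773). Of the other synthesis enzymes, *Lbr* differed by -0.31 (0.0330) and *Pmvk* by -0.39 (0.0393). Of uptake and transport, *Lrp8* differed by -1.15 (0.00131). Higher in the silencing lines were the export genes *Abca1* at 1.32 (0.0201) and *Abcg1* at 0.91 (0.0128), and *Scap* at 0.49 (0.0319). Of the fatty acid genes, *Me1* differed by -0.56 (0.0248), *Scd1* by -0.62 (0.0157) and *Lpin1* by 1.17 (0.00360). Between *Xist* ΔA and another line without DOX, *Ebp*, *Lbr*, *Scd1* and *Abca1* already differed without the block, and *Idi1*, *Cyp51*, *Pmvk*, *Lrp8* and *Abcg1* with it, and the part of that in these differences was not tested. With 2 libraries in each group no single library could be tested as an outlier.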

How the results depend on the processing

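With the replicate block the number of the 8 enzymes that passed rose to 5 (from 1) in each silencing line, from 0 to 4 in the difference from *Xist* ΔA, from 2 to 4 between *Xist* ΔA and *Xist* FL without DOX and from 1 to 3 between *Xist* ΔB+C and *Xist* ΔA, and the calls it changed are given with the results. DESeq2 gave 2, 3 and 1 in the first 3 of these, adding *Nsdhl* in both lines (adjusted p = 0.00435 and 0.00602) and *Fdft1* in *Xist* ΔB+C (0.00663). In limma‐voom neither was added (adjusted p = 0.0758 and 0.0693 for *Nsdhl*, 0.0856 for *Fdft1* in *Xist* ΔB+C). The fit with no filter gave 1 in the difference from *Xist* ΔA. Leaving out each library gave 0 to 1 (block 3 to 6) in *Xist* FL, 0 to 0 in *Xist* ΔA, 0 to 1 (block 4 to 5) in *Xist* ΔB+C, 0 to 0 between their responses, 0 to 0 (block 1 to 4) in the difference from *Xist* ΔA, 0 to 2 (block 3 to 5), 0 to 0 and 0 to 1 (block 1 to 3) between the lines without DOX, and 2 to 3 for the replicate number. The median of the 6 autosomal enzymes then ran from -0.24 to -0.19 in *Xist* FL, -0.0677 to 0.14 in *Xist* ΔA and -0.30 to -0.07 in *Xist* ΔB+C, and with library totals it was -0.0169 in *Xist* ΔA. Direction turned only for values near 0 and for *Hmgcs1* in *Xist* ΔB+C, which was at -0.14 ± 0.114 with all libraries. For *Srebf2* in *Xist* FL it was 0.0139 with DESeq2, 0.00753 with TMM from all genes, 0.00129 with library totals and 0.000884 with the 5 CPM filter. With library totals *Hmgcs1*, *Idi1*, *Sqle* and *Cyp51* in *Xist* ΔA were -0.0218, -0.0121, -0.00447 and -0.0320, and *Mbtps2* in *Xist* ΔB+C was 0.0178 (0.00398 with DESeq2). Without single libraries the *Xist* ΔA values ran from -0.18 to 0.21 for *Cyp51* (block -0.0128 to 0.0336), -0.0322 to 0.0697 for *Hmgcs1* (block -0.0421 to 0.0797), -0.16 to 0.20 for *Idi1* (block -0.0402 to 0.0831), -0.11 to 0.0220 for *Lss* (block -0.10 to 0.00930), -0.14 to 0.0889 for *Nsdhl* (block -0.17 to 0.12) and -0.10 to 0.19 for *Sqle* (block -0.0617 to 0.14). In *Xist* FL they ran from -0.11 to 0.12 for *Srebf2*, and in *Xist* ΔB+C from -0.29 to 0.0292 for *Hmgcs1*, -0.21 to 0.22 for *Mbtps2* and -0.24 to 0.10 for *Srebf2*. The cause of these changes was not tested.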

Other observations

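Fatty acid genes under SREBP, a branch of lipid synthesis not described above, moved in both directions. Of 14 such genes none passed in *Xist* FL in edgeR without the block (2 lower and 1 higher at an unadjusted p under 0.05). In *Xist* ΔB+C 1 passed, as higher, against 2.94% of all genes in either direction. This was *Lpin1*, a phosphatidate phosphatase of triglyceride synthesis, at 18.99 and 13.7 CPM without and 30.4 and 34.1 CPM with DOX (0.98 ± 0.173, adjusted p = 0.0230). The call was lost without *Xist* ΔB+C noDOX replicate 2 or DOX replicate 2 (adjusted p up to 0.149). In *Xist* ΔA *Lpin1* was at 18.2 and 19.1 CPM without and at 14.996 and 13.9 CPM with DOX.

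With the block 3 of the 14 were lower and 1 higher in each silencing line, against 13.9% (FL) and 21.9% (ΔB+C) of all genes in either direction. The desaturase gene *Scd1* (-0.65 and -0.57) and *Me1*, the malic enzyme that supplies NADPH (-0.55 and -0.50), were lower in both silencing lines, *Scd2* in *Xist* FL (-0.46) and *Fasn*, the fatty acid synthase gene, in *Xist* ΔB+C (-0.31). *Scd1* was at 69.5 and 66.2 CPM without and 46.8 and 40.0 CPM with DOX in *Xist* FL, while *Xist* ΔA held 36.1 and 30.4 CPM without and 37.9 and 29.3 CPM with DOX. The median log2 (fold change) of the 14 was -0.14 (FL), -0.17 (ΔB+C) and 0.03 (ΔA).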
